A study of Mus musculus with 10 samples.

Results

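Gene expression in a line of mouse embryonic stem cells that stably expresses PRDM14 together with DNMT3B1 was compared with that of J1, the control line named in its sample titles. The arrays were chosen by their titles, 2 labelled with both transgenes and 2 labelled J1, which is 4 of the 10 arrays of the study. J1 is a wild-type embryonic stem cell line. The other line, JP-23+3b-3, is labelled wild-type with stable Prdm14 and Dnmt3b1 expression and is called PRDM14_DNMT3B here, after its label. The study also holds a line expressing PRDM14 alone (JP-23), a Dnmt3b knockout (8bb), a Dnmt1 knockout and a triple knockout (TKO), which enter the text only where their levels bear on a result. Each group is 1 cell line, so a property of that line and an effect of the transgenes cannot be told apart, and the promoter of the transgenes is not stated in the labels. All cells grew without feeder cells in serum with leukaemia inhibitory factor (LIF). The labels name no separate cultures behind replicate arrays, and the p-values below therefore reflect the scatter of these arrays alone, possibly a technical one.

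PRDM14 is a zinc finger protein of the germline and of pluripotent cells. In embryonic stem cells it is known to restrain fibroblast growth factor signalling and to repress the genes of the de novo DNA methyltransferases, with loss of DNA methylation. DNMT3B is one of those enzymes and places methyl groups on cytosines that precede guanines (CpG sites), and DNMT3B1 is a catalytically active isoform of it. The study's design text names the effect of demethylation by PRDM14 on expression as its question, and the line with DNMT3B1 adds a methyltransferase back to PRDM14.

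Every level is a log2 fluorescence intensity minus the 75th percentile of its array, so that 0 is the level 75% of spots lie below, and every difference is PRDM14_DNMT3B minus J1 on that log2 scale. Levels of different probes are not comparable with each other. Slide 1 and slide 2 each carried 1 array of either group, which gives a difference within each slide. On slide 2 the J1 array was scanned in another pass than its partner, and on slide 1 both were scanned in the same pass. Between 50.0% and 54.4% of spots on the 4 arrays were well above background. Replicate arrays correlated at r = 0.9951 in J1 and 0.9957 in PRDM14_DNMT3B over 18238 genes, which is a description across genes of shared probes. Genes of embryonic stem cells were well above background on all 4 arrays for 8 of the 8 markers looked at (Pou5f1, Sox2, Nanog, Sall4, Zfp42, Dppa5a, Utf1 and Tdgf1).

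The targeted genes were read first. The Prdm14 probe (chromosome 1, 13103555 to 13103614, minus strand, mm9) read -0.08 and 0.09 in J1 and -6.35 and -6.42 in PRDM14_DNMT3B. It was well above background on both J1 arrays and on neither PRDM14_DNMT3B array, so Prdm14 was at least 16.9-fold lower (limma adjusted p = 2.5e-05). Such an "at least" fold sets the brighter group against the dimmest signal that counts as well above background on each array of the other group, or against the probe's own signal where that is higher. The arrays labelled PRDM14 alone read -4.32 and -4.02 at this probe and those of the Dnmt3b knockout 1.18 and 1.15. Dnmt3b (probe on chromosome 2, 153513403 to 153513462, plus strand, mm9) read 7.60 and 7.57 in J1 and 4.09 and 4.17 in PRDM14_DNMT3B (difference -3.45 ± 0.08 SE, limma adjusted p = 2.5e-05, n = 2 arrays per group, as for every such test below). Its other 2 probes differed by -3.60 and -3.19. The arrays labelled PRDM14 alone read 4.996 and 5.05 and the knockout arrays 1.62 and 1.69. Both genes thus read lower in the line labelled as expressing both. The labels do not say whether these probes lie within the transgene transcripts, so the probes do not check the label, and every direction below is that of the arrays as labelled.

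The J1 arrays stood apart at Hprt, a purine salvage enzyme often used as a reference. Hprt read -2.35 and -2.26 in J1 and 6.33 and 6.56 in PRDM14_DNMT3B, and the 6 arrays of the remaining groups lay between 5.81 and 6.49. The arrays labelled J1 thus lacked most of the Hprt signal that the line titled as made from J1 showed, and whether the J1 cells on these arrays are its direct parent was not tested. Of 13 housekeeping genes 3 were called higher and 2 lower, with a median of -0.03. Sdha (fell by 0.43) lost its call without J1 replicate 2 or PRDM14_DNMT3B replicate 1, which left 1 called lower.

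Over the array, 9316 of 23801 genes tested passed limma's test at an adjusted p under 0.05 (39.1%), 4638 higher in PRDM14_DNMT3B (19.5%) and 4678 lower (19.7%). Past 2-fold, 2078 were higher (8.73%) and 1845 lower (7.75%). All 9316 had the same sign within slide 1 and within slide 2, against 69.6% of the 14485 genes not called. The fitted difference is the mean of these slide differences, so called genes were nearly bound to share a sign. The comparison is therefore no separate evidence of reproducibility. A fitted difference past 16-fold was seen for 111 of the higher and 51 of the lower genes. Counts of list members below are read against these shares. A member that passed the filter only through a group where it is high had to differ, so counts and medians of lists describe the members tested and support nothing further.

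**Figure D1:**
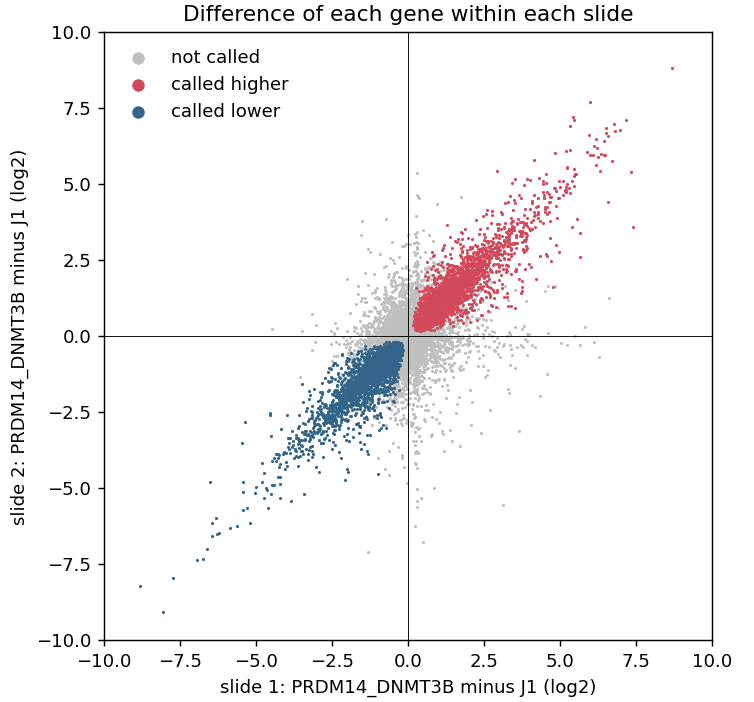
Difference between PRDM14_DNMT3B and J1 (log2) on slide 1 (x axis) and on slide 2 (y axis), 1 point per gene tested, with called genes in colour. The 4638 genes called higher lie above 0 on both axes and the 4678 called lower lie below 0 on both.

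Genes of naive pluripotency, the state of the early epiblast, were mostly higher. Of 22 tested, 18 were called higher and 1 lower, with a median difference of 0.81 beside -0.06 over all genes. Tbx3, a T-box factor of self-renewal, read 1.32 and 1.38 in J1 and 3.83 and 3.51 in PRDM14_DNMT3B (difference 2.32 ± 0.12 SE, limma adjusted p = 0.00011). Tdh, the mitochondrial threonine dehydrogenase of mouse embryonic stem cells, read 6.97 and 6.65 in J1 and 9.23 and 8.98 in PRDM14_DNMT3B. The orphan nuclear receptor Esrrb read 5.62 and 5.55 in J1 and averaged 7.05 ± 0.06 (SD, n = 2) in PRDM14_DNMT3B (difference 1.46 ± 0.09 SE, limma adjusted p = 0.00015). In these 3 genes the groups did not overlap, which genes called from 2 arrays per group are nearly bound to show. Smaller rises were seen for the cell adhesion gene Jam2 (1.75), the maternal factor Dppa3 (1.23), the zinc finger gene Zfp42 (1.000) and Klf4 (0.86). The Dnmt3b knockout arrays also lay above J1 at Tbx3 (3.16 and 3.23), Tdh (8.13 and 7.99) and Esrrb (6.33 and 6.34). Klf4 (3.26 and 3.45) and Jam2 (3.14 and 3.11) read above J1 there too. The knockout arrays lay below J1 at Dppa3 (0.81 and 1.03, against 1.91 and 2.11) and Zfp42 (5.98 and 5.95, against 6.11 and 6.21). Klf5 was the member called lower (-0.56), a call lost without J1 replicate 1 or either PRDM14_DNMT3B array. Nanog, a central homeobox factor, read 5.91 and 5.95 in J1 and 5.73 and 5.73 in PRDM14_DNMT3B and was not called (difference -0.20, limma adjusted p = 0.15). Zfp42 lies on chromosome 8 and Tdh and Klf5 on chromosome 14, both of which were shifted as a whole, as given further on.

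Shared pluripotency factors moved less. Of 15 tested, 6 were called higher and 3 lower (median 0.08), and the higher count dropped to 3 without J1 replicate 1 or either PRDM14_DNMT3B array. Pou5f1, which encodes OCT4, read 5.98 and 5.99 in J1 and 6.22 and 6.16 in PRDM14_DNMT3B and was not called (difference 0.20, limma adjusted p = 0.16). Its partner Sox2 was called higher by 0.47 (limma adjusted p = 0.031), and leaving out any of those 3 arrays ended the call. Dppa2 and Dppa4, a pair of chromatin factors, rose by 0.85 and 0.63, and Fgf4, the growth factor made by pluripotent cells, by 0.54. Lin28b, an RNA-binding protein that blocks let-7 maturation, fell by 1.18 and Utf1 by 0.64.

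Genes of the primed epiblast, the later state that precedes lineage choice, were mostly lower. Of 23 tested, 14 were called lower and 2 higher, with a median of -1.40. Pou3f1, a POU factor of the epiblast also called OCT6, read 4.68 and 4.85 in J1 and 1.10 and 1.16 in PRDM14_DNMT3B (difference -3.63 ± 0.12 SE, limma adjusted p = 3.8e-05). Fgf5, the usual marker of that state, read 1.74 and 1.95 in J1 and -1.59 and -1.75 in PRDM14_DNMT3B (difference -3.52 ± 0.15 SE, limma adjusted p = 6.8e-05). Neither gene overlapped between the groups, which adds nothing to the call. The arrays labelled PRDM14 alone read 1.09 and 1.17 for Pou3f1 and those of the Dnmt3b knockout 4.05 and 4.33. Dnmt3b is itself a member of this list. Sall2, on chromosome 14, rose by 1.26 and the ligand gene Nodal by 0.91. The homeobox factor Otx2 read 3.43 and 3.42 in J1 and 3.61 and 3.48 in PRDM14_DNMT3B and was not called (0.12).

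**Figure D2:**
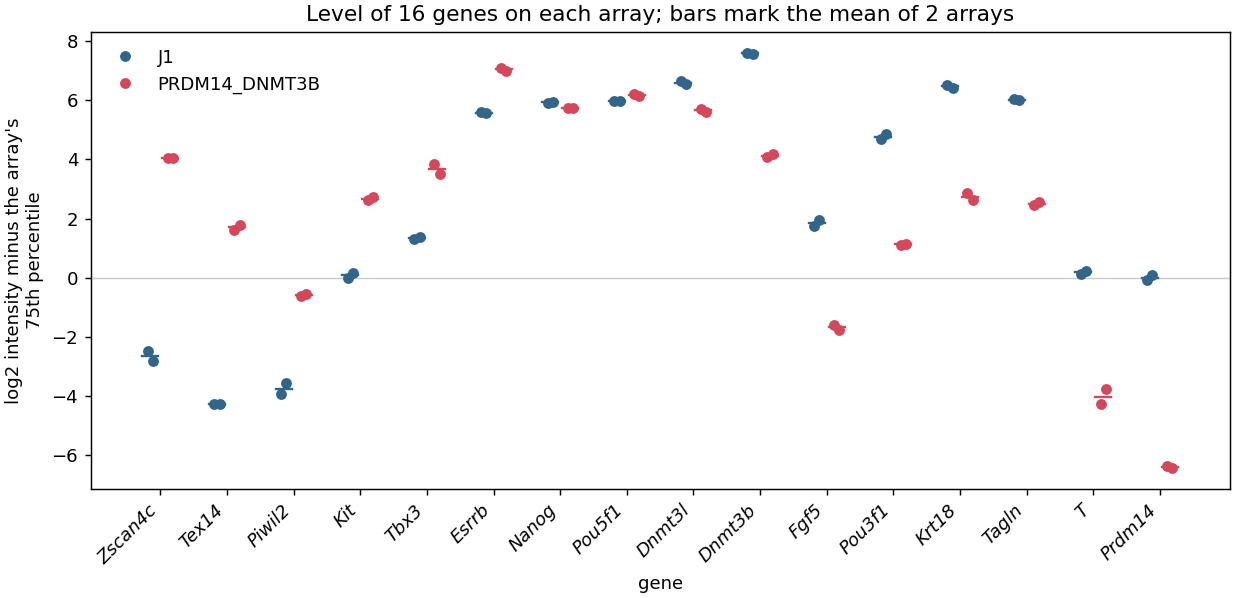
Level of 16 genes (y axis, log2 intensity minus the array's 75th percentile) on each of the 4 arrays, with bars at the mean of 2 arrays per group. Tbx3, Esrrb, Kit and Zscan4c are higher on both PRDM14_DNMT3B arrays, Nanog and Pou5f1 lie close together, and Fgf5, Pou3f1, Dnmt3b and Prdm14 are lower on both.

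Of 10 DNA methylation genes, 3 were called lower and 0 higher (median -0.04). Beside Dnmt3b these were Dnmt3l, the catalytically inactive partner of the de novo enzymes, which read 6.65 and 6.54 in J1 and 5.70 and 5.62 in PRDM14_DNMT3B (difference -0.94 ± 0.09 SE, limma adjusted p = 0.0007), and Uhrf1, which brings the maintenance enzyme to replicated DNA and fell by 0.39, a call lost without PRDM14_DNMT3B replicate 2. The maintenance enzyme Dnmt1 differed by 0.29 (limma adjusted p = 0.21, and 0.028 with the replicate block), and the de novo enzyme Dnmt3a by -0.17 without a call.

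Of 20 genes for oxidation, deamination and excision of methylcytosine, 6 were called higher and 4 lower. Tet1, a dioxygenase that oxidises methylcytosine, read 4.96 and 4.91 in J1 and 5.79 and 5.77 in PRDM14_DNMT3B (difference 0.84 ± 0.08 SE, limma adjusted p = 0.00059), while Tet2 differed by -0.01. The cytidine deaminase Apobec1 rose by 2.35, and the repair genes Neil2 and Apex1, both on chromosome 14, by 1.80 and 0.99. Gadd45b, a stress gene linked to demethylation, fell by 1.35. Of 9 genes from the families of methyl-CpG-binding proteins 2 were called higher, with Zbtb38 at 1.29. Mbd3 was the member called lower (-0.41), and that call was lost without any 1 of the 4 arrays.

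Genes of the 2-cell embryo had a median of 3.88, or 2.38 with the 14 members that have only a bound set to it. Of 24 tested, 20 were called higher and 2 lower. Of the higher members 12 were not above background on either J1 array and 8 were above it on all 4 arrays, the Zscan4 genes named here among the latter. Zscan4c, a zinc finger gene known for its burst at that stage, read -2.47 and -2.81 in J1 and 4.05 and 4.06 in PRDM14_DNMT3B (difference 6.70 ± 0.17 SE, limma adjusted p = 2.5e-05), and its other 2 probes differed by 6.02 and 6.22. Gm4340 (6.87), Zscan4a (6.60), Zscan4f (6.43) and Zscan4e (6.24) rose too, but these families have near-identical copies that a probe may not tell apart. Zfp560 and Pramel6 were the lower members, at least 1.28-fold lower and at least 1.61-fold lower. Across the study Zscan4c read 4.13 and 4.24 on the arrays labelled PRDM14 alone, -2.71 and -3.09 in the Dnmt3b knockout, 1.997 in the Dnmt1 knockout and 1.18 in the triple knockout. The PRDM14_DNMT3B arrays were thus next to those of PRDM14 alone and the J1 arrays next to those of the Dnmt3b knockout.

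Germline genes were mixed. Of 16 genes of the piRNA pathway, which silences transposons in germ cells, 7 were called higher and 2 lower. Piwil2, a PIWI protein of germ cells, read -3.92 and -3.57 in J1 and -0.62 and -0.55 in PRDM14_DNMT3B (difference 3.16 ± 0.19 SE, limma adjusted p = 0.00015). Rnf17, a Tudor protein, was at least 9.51-fold higher, and both genes lie on chromosome 14. Gpat2 fell by 0.93. Tdrd7 (-0.95) lost its call without J1 replicate 2 or PRDM14_DNMT3B replicate 1, which left 1 lower member. Of 22 genes of meiotic chromosomes 10 were called higher and 2 lower. Hormad1, of the unsynapsed chromosome axis, read -3.05 and -3.05 in J1 and -0.71 and -0.64 in PRDM14_DNMT3B, and the cohesin gene Rec8 (chromosome 14) rose by 1.66. Sycp3, of the synaptonemal complex, read 1.08 and 1.04 in J1 and -0.27 and -0.47 in PRDM14_DNMT3B, and the recombinase gene Dmc1 fell by 1.33.

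Of 26 further germline genes 8 were called higher and 4 lower, with a median of 0.13. Tex14, a protein of the bridges between germ cells, read -4.26 and -4.27 in J1 and 1.63 and 1.80 in PRDM14_DNMT3B and was at least 55.6-fold higher (limma adjusted p = 2.2e-05). The RNA-binding gene Dazl rose by 1.51, whereas the helicase gene Ddx4 of the piRNA list differed by 0.14 and was not called. Ybx2, a germ cell RNA-binding protein, fell by 1.42.

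Promoters of germline genes are often rich in CpG sites, and an E2F-type sequence, GCGGGAA, occurs in many of them. Windows of 300 bases (250 before and 50 after the gene's start, RefSeq, GRCm38.p6) are printed for 2 higher genes, Tex14 (chr11:87404815-87405114, plus strand) and Slc25a31 (chr3:40708621-40708920, plus strand), and 2 lower genes, Sycp3 (chr10:88459337-88459636, plus strand) and Tuba3a (chr6:125286032-125286331, minus strand). They were picked because each holds that sequence once, to show it in genes of either direction. Each reads 5′ to 3′ on the gene's strand, with the match to GCGGGAA or its reverse complement in capitals.
Tex14: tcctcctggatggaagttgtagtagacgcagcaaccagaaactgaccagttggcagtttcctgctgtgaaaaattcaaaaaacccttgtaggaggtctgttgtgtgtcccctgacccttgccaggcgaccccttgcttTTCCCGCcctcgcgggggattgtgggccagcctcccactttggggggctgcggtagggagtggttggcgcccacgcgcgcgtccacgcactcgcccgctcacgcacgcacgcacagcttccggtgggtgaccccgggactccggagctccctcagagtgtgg
Slc25a31: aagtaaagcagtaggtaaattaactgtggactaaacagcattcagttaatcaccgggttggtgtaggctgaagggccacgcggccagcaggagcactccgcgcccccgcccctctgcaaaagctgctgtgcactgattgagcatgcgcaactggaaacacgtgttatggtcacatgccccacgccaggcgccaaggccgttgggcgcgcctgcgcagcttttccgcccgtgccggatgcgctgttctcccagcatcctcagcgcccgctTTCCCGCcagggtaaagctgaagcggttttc
Sycp3: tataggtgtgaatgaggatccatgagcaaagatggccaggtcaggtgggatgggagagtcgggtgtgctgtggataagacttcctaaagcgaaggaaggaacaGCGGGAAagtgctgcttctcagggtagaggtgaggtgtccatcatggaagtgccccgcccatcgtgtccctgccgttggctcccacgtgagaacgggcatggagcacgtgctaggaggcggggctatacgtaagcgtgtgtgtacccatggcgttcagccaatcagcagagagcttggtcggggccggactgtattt
Tuba3a: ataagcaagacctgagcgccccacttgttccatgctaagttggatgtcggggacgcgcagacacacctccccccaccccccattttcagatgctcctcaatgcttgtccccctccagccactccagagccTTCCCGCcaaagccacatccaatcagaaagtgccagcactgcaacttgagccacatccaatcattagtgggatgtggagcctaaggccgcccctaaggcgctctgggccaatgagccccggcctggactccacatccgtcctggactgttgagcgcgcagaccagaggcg
The windows hold 20, 22, 15 and 12 CpG sites in that order. Slc25a31, an ADP/ATP carrier of the testis, was at least 2.5-fold higher, and Tuba3a, a testis tubulin, fell by 1.11. GCGGGAA on either strand was found in 35.7% of the 14 germline promoters whose genes were called higher, in 28.1% of the 32 whose genes were not, in 8.07% of the 9881 tested genes with 1 window and in 4.597% of all 22862 such promoters. A match is a description of the letters only.

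Over those 9881 genes, 16.01% with under 5 CpG sites in the window were called and more than 2-fold higher, against 11.97% with 5 to 14, 7.32% with 15 or more and 9.56% of all. Called and more than 2-fold lower were 6.43%, 9.77% and 6.54%, against 7.27% of all. Without the 2-fold cut the shares called higher were 20.34%, 25.31% and 22.99% in the same order, against 23.17% of all. The excess of promoters with under 5 CpG sites among higher genes thus did not hold at that threshold. The shares called lower were 12.34%, 19.81% and 21.3%, against 19.74% of all.

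Of 16 genes of primordial germ cells, the founders of the germline, 10 were called higher and 2 lower, with a median of 1.16. Kit, the receptor for stem cell factor, read 0.01 and 0.15 in J1 and 2.62 and 2.72 in PRDM14_DNMT3B (difference 2.59 ± 0.13 SE, limma adjusted p = 9e-05). Prdm1, which encodes BLIMP1, read -0.69 and -0.39 in J1 and 1.19 and 1.501 in PRDM14_DNMT3B. The groups did not overlap in either gene, which adds nothing to the call. The integrin gene Itgb3 rose by 2.09. Ifitm1 fell by 1.23, and Prdm14 is the other member called lower.

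Of 19 fibroblast growth factor and ERK genes, 7 were called higher and 9 lower, with a median of -0.29. The feedback inhibitors Spred1 and Spry1 fell by 1.10 and 0.99. The ligand gene Fgf15 rose by 1.66 and the receptor gene Fgfr4 by 1.20. Of 18 immediate early genes, the first transcribed after a growth signal, 7 were higher and 7 lower, with Btg2 at 1.23 and Ier3 at -1.36.

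Of 13 genes of LIF signalling 5 were called lower, among them the inhibitor Cish (-1.01). Stat3, its transcription factor, was the member called higher (0.69), a call lost without J1 replicate 2 or PRDM14_DNMT3B replicate 1. Of 14 BMP genes 5 were higher and 2 lower. The target Id3 rose by 1.31 and the ligand genes Bmp7 and Bmp4 (chromosome 14) by 1.25 and 1.18. Without PRDM14_DNMT3B replicate 2, 3 BMP genes were higher, and without it, PRDM14_DNMT3B replicate 1 or J1 replicate 2, 1 was lower, Bmpr1a (-0.56) losing its call.

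Of 16 Wnt genes 6 were lower and 4 higher. The ligand gene Wnt3 fell by 2.28 and Wnt8a was at least 4.08-fold lower, while the nuclear factor gene Lef1 rose by 1.06. T, the mesoderm factor brachyury, read 0.12 and 0.24 in J1 and -4.28 and -3.77 in PRDM14_DNMT3B and was at least 17.1-fold lower. Of 9 mesoderm genes 4 were lower and 2 higher. Of 10 neural genes 4 were higher, with Tubb3 (chromosome 8) at 1.06, and 3 lower, with the filament gene Nes at -1.99. The higher neural members include Fabp7, which was not above background on any of the 4 arrays. The higher neural count was 2 without PRDM14_DNMT3B replicate 1 and the lower 1 without replicate 2. Of 20 primitive endoderm genes 6 were higher, among them Sox7 and Gata4 on chromosome 14 (1.38 and 1.14, the latter above background on 1 of the 2 J1 arrays), and 5 lower, among them Cited1 (-2.98).

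Trophoblast and epithelial genes were mostly lower. Of 19 trophoblast genes 12 were called lower and 2 higher (median -0.84). Krt18, a filament protein of simple epithelia, read 6.53 and 6.41 in J1 and 2.86 and 2.64 in PRDM14_DNMT3B. Its partner Krt8 and the keratin gene Krt19 fell by 3.74 and 3.47. Krt18 read 2.44 and 2.31 on the arrays labelled PRDM14 alone and 7.24 and 7.06 in the Dnmt3b knockout. The trophectoderm gene Tfap2a rose by 1.59. Of 17 genes of epithelial or mesenchymal state 9 were lower and 2 higher. The tight junction genes Cldn7 and Cldn6 fell by 3.74 and 2.48 and the epithelial regulator Grhl2 by 2.41. The mesenchymal genes Zeb1 and Vim, the 2 members called higher, rose by 1.21 and 0.83. Snai1 of the mesoderm list and S100a4 and Tagln of the fibroblast list fell by 1.74, 1.80 and 3.51.

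Of 12 fibroblast genes 6 were lower and 1 higher (median -0.73). Tagln, an actin-binding protein, fell by 3.51, the matrix proteoglycan gene Dcn was at least 7.84-fold lower, and the matrix gene Fbln1 rose by 0.97. Of the fibroblast markers looked at, Lum and Postn were not above background on every array of any group. Dcn, Thy1, Col1a1, Col1a2, Col3a1 and Fbln1 were above it on both J1 arrays. Thy1 and Col1a1 were called lower (-1.02 and -0.54), and Col1a2 and Col3a1 were not called. The part of other cells in these differences was not tested, and fewer cells of a type cannot be told apart from less RNA per cell.

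Imprinted genes, expressed from 1 parental copy, moved both ways. Of 19 maternally expressed genes 10 were called lower and 2 higher (median -0.62). The receptor gene Calcr fell by 4.07, the growth inhibitor Cdkn1c by 2.28 and the long RNA Meg3 by 2.18. H19, another long RNA, read -2.58 and -2.14 in J1 and 0.02 and -0.04 in PRDM14_DNMT3B (difference 2.35 ± 0.16 SE, limma adjusted p = 0.00023). Of 23 paternally expressed genes 10 were higher and 6 lower (median 0.28). Plagl1, a zinc finger gene, read -4.25 and -3.88 in J1 and 2.91 and 3.25 in PRDM14_DNMT3B at the probe used, which was above background on 1 of the 2 J1 arrays, but its 4 probes differed among themselves, at 7.14, 6.88, 0.70 and 0.54. Nnat was at least 8.98-fold higher and Peg13, above background on 1 of the 2 J1 arrays, read -4.20 and -6.16 in J1 and -0.67 and -0.99 in PRDM14_DNMT3B. Its fitted difference of 4.35 was 5.33 without J1 replicate 1 and 3.37 without J1 replicate 2, so its size is loosely set. The arrays of the remaining groups read 0.99 to 3.22 at the Plagl1 probe used and -0.81 to 0.12 at Peg13. J1 was thus the group apart at both genes. Dlk1 fell by 1.46 and Magel2 by 1.48. Igf2 was not called (-0.32).

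Of 10 Rhox genes, X-linked homeobox genes of reproductive tissue, 4 were called lower and 0 higher, and without J1 replicate 1 there were 2 higher. Rhox6 read 2.53 and 2.34 in J1 and 0.60 and 0.31 in PRDM14_DNMT3B, and 4.36 and 4.07 on the arrays labelled PRDM14 alone. At Rhox6 the PRDM14_DNMT3B arrays thus lay below J1 and the arrays of PRDM14 alone above it. Rhox9 showed the same order, whereas at Rhox5 the arrays of PRDM14 alone (6.68 and 6.68) also lay below J1 (7.62 and 7.41). Rhox5 and Rhox9 fell by 2.22 and 1.09. The Dnmt3b knockout arrays also lay below J1, with 0.93 and 0.77 at Rhox6, 1.82 and 1.71 at Rhox9 and 5.16 and 4.99 at Rhox5. At Rhox6 and Rhox9 the triple knockout read 1.00 and 1.39 and the Dnmt1 knockout 3.03 and 3.51.

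Of 20 targets of p53, the damage-response factor, 11 were called higher and 0 lower, with a median of 0.57. Gdf15, a stress cytokine on chromosome 8, read -2.26 and -2.20 in J1 and 0.95 and 1.08 in PRDM14_DNMT3B. The death receptor gene Fas was at least 5.69-fold higher.

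Of 13 genes of MHC class I antigen display 8 were called lower and 1 higher, with a median of -0.64. B2m, the light chain of class I, fell by 1.75, the peptide transporter gene Tap2 by 1.49, and the proteasome gene Psmb8 was at least 15.5-fold lower. Nlrc5, the class I activator on chromosome 8, was the member called higher. It read -3.75 and -4.17 in J1 and -2.56 and -2.29 in PRDM14_DNMT3B and was above background on 1 of the 2 J1 arrays (fitted difference 1.54). Of 15 interferon-inducible genes 8 were lower, or 5 without J1 replicate 2, with Ifih1 among them though not above background on any of the 4 arrays, and 3 higher. Gbp2, a GTPase, read 1.72 and 1.88 in J1 and -4.71 and -4.70 in PRDM14_DNMT3B and was at least 58.6-fold lower. Isg15, a ubiquitin-like protein, fell by 2.73, while Ddx58, which encodes the RNA sensor RIG-I, and Irf9 (chromosome 14) rose by 1.66 and 1.13.

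**Figure D3:**
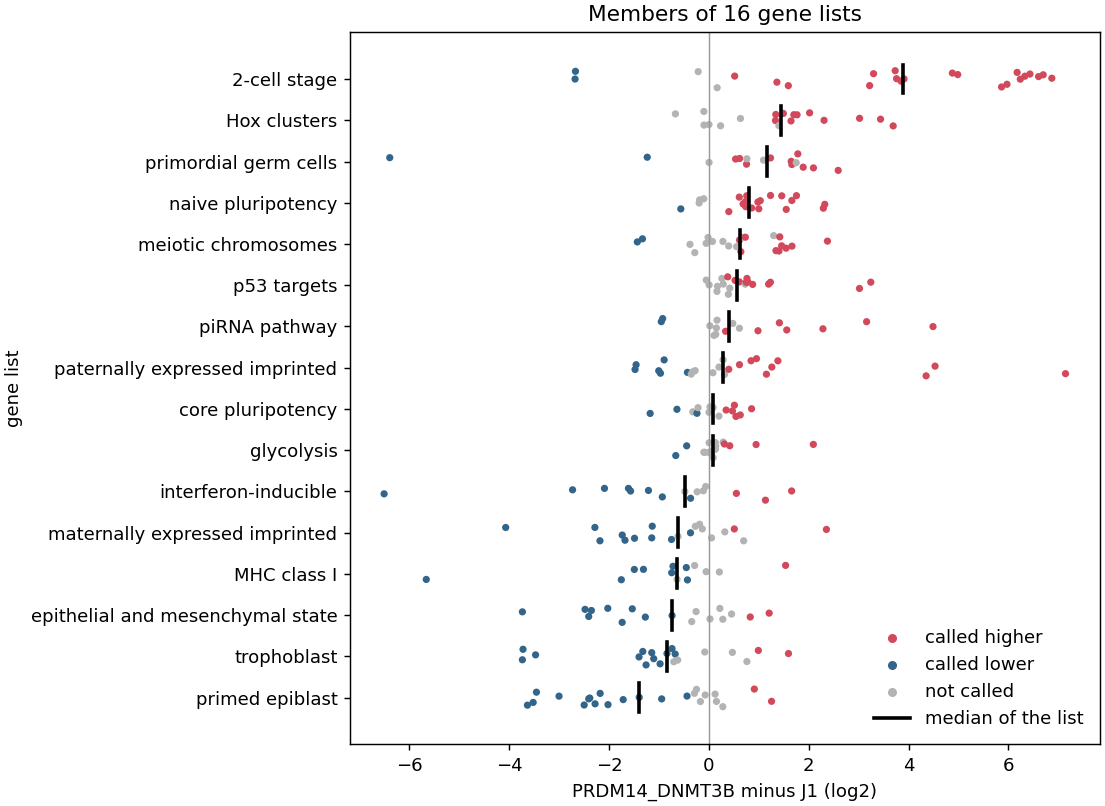
Difference between PRDM14_DNMT3B and J1 (x axis, log2) of each tested member of 16 gene lists (y axis), coloured by its call, with a black bar at the list's median. Medians run from 3.88 in the 2-cell stage list to -1.40 in the primed epiblast list, and members with only a bound are drawn at their fitted difference.

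Chromatin and metabolic lists were more evenly split. Shares called higher were 22.7% for Polycomb, 21.4% for H3K9 methylation and 21.05% for glycolysis genes, near the 19.5% of all genes. Shares called lower were 18.2%, 14.3% and 10.5% in that order, none above the 19.7% of all. Of 22 Polycomb genes 5 were higher, led by the CpG-binding protein Kdm2b (1.65), and 4 lower, among them the repressor E2f6 (-1.02). Of 14 H3K9 methylation genes 3 were higher, with Atf7ip at 0.95, and 2 lower, with Cbx1 at -1.13. Leaving out PRDM14_DNMT3B replicate 1 left 1 of these higher, and leaving out any 1 of the 4 arrays left 1 lower. Of 16 telomere genes 6 were higher, with the shelterin gene Tinf2 and the telomerase-associated gene Tep1, both on chromosome 14, at 1.15 and 1.24, and 2 lower, or 0 to 1 with 1 of the 4 arrays left out.

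Of 17 genes of threonine, glycine and one-carbon metabolism 7 were higher, with the serine hydroxymethyltransferase gene Shmt2 at 1.22, and 5 lower, with the glycine decarboxylase gene Gldc at -0.95. Without J1 replicate 1 or PRDM14_DNMT3B replicate 2, 3 of them were lower. Of 19 glycolysis genes 4 were higher, led by the phosphofructokinase gene Pfkp (2.09), and 2 lower. Without either J1 array or PRDM14_DNMT3B replicate 1, 2 were higher.

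Among the largest differences outside the lists, Adam32, a membrane protein gene on chromosome 8, was at least 30.5-fold higher. Mid1, a ubiquitin ligase gene of the X chromosome, was at least 122-fold lower. The metal transporter gene Slc39a8 was at least 90.8-fold lower and the chemokine gene Cxcl12 at least 31.0-fold lower. On the arrays of the knockout lines Mid1 read -3.87 to -2.13 and Slc39a8 -1.05 to -0.07. J1 read 2.89 and 2.84 for Mid1 and 2.33 and 2.54 for Slc39a8, above every other line at both. Cxcl12 read 0.32 to 2.09 in the knockout lines, around J1 (0.85 and 0.91). Synm, an intermediate filament gene, was at least 31.7-fold higher at the probe used, but its 5 probes spanned differences from 0.38 to 6.37. At the probe used the J1 arrays read -6.55 and -4.42 and those of the remaining groups -0.87 to 0.05, so J1 was the group apart.

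Of 5 Y-linked genes tested 3 were called lower. Eif2s3y, a translation factor gene, read 3.62 and 3.94 in J1 and -4.42 and -5.11 in PRDM14_DNMT3B and was at least 231-fold lower. Ddx3y, an RNA helicase gene, was at least 51.9-fold lower. Eif2s3y read 0.30 and 0.53 on the arrays labelled PRDM14 alone, between the other groups, and 3.29 to 3.79 on the 4 arrays of the knockout lines, near J1.

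Chromosomes 8 and 14 stood above the other autosomes. Of 1292 genes tested on chromosome 8, 38.5% were higher and 8.51% lower, and their median exceeded that of the other autosomes by 0.36, with 0.36 on slide 1 and 0.39 on slide 2. In 4 consecutive stretches of 323 genes along it the excess was 0.26, 0.42, 0.50 and 0.28. Chromosome 14 had 34.2% of 925 genes higher and an excess of 0.13. Set against the same J1 mean, chromosome 8 stood at 0.43 on both arrays labelled PRDM14 alone, at 0.03 on both of the Dnmt3b knockout, at -0.02 in the Dnmt1 knockout and at 0.23 in the triple knockout. Chromosome 14 stood at 0.12 to 0.21 on all 8 arrays other than J1, so there J1 was the group apart. Copy number was not measured, and its part in these values was not tested.

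Without the genes of both chromosomes, 15 of 18 naive genes were called higher and 0 lower, and 13 of 19 primed epiblast genes were lower. For the piRNA list 5 of 14 were higher, for meiotic chromosomes 7 of 19, for primordial germ cells 9 of 15 and for p53 targets 9 of 18. Of all 21584 genes off these chromosomes 17.7% were higher and 20.5% lower. No tested member of the 2-cell list has its probe on either chromosome.

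**Figure D4:**
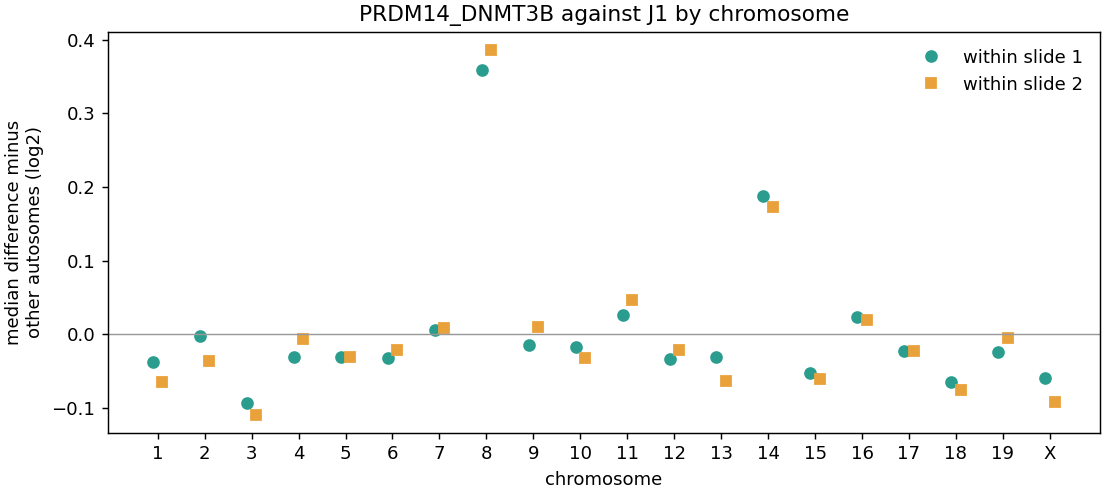
Median difference between PRDM14_DNMT3B and J1 of the genes of each chromosome (x axis) minus that of the other autosomes (y axis, log2), within slide 1 and within slide 2. Chromosome 8 lies at 0.36 and 0.39 and chromosome 14 at 0.19 and 0.17.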

How the data were processed

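Gene expression was measured on 10 Agilent 1-colour arrays. Members and gene lists were chosen with earlier results of these data known. The scanner intensity values were made with Agilent Feature Extraction 10.7.3.1, per the file headers, which detrend each array and put surrogate values in for dim spots, and the submitters' processing notes name limma without a version. The authors' deposited log2 table has the same distribution in every column, a normalization between arrays whose method is not stated, and served as an alternative.

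Here log2 intensities were scaled to each array's 75th percentile, outlier spots removed and spots averaged per probe. The design did not state how the background flags of repeated spots combine. That rule was settled after results under other rules had been seen: 3 rules were tried, and the one that requires all spots of a probe to be flagged well above background was kept, which gives the lowest fold bounds. Probes passing on every array of at least 1 of 6 groups were kept (33100), and each of the 23801 genes was represented by its brightest probe on average. Symbols were updated through RefSeq (26582 of 28116 accessions matched).

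limma 3.58.1 in R 4.3.3 was fitted to all 10 arrays with Benjamini-Hochberg adjustment, and was tested on simulated data. Replicate numbers mark the slide for J1, PRDM14_DNMT3B and Dnmt3b_KO, and same-numbered arrays of these groups deviated together (r = 0.453 to 0.507). Those of J1 and PRDM14, on different slides, did so too (r = 0.344). The numbers were taken to pair the arrays, but the main fit has no block, so the printed SEs and p-values ignore this pairing. A fit with the number as a block (the replicate block) was run as an alternative. Named genes were preset ones of known interest, up to 3 per list and direction and the 12 largest rises and falls. Families of collagens, keratins, Hox genes and histones were looked up after seeing the data.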

Additional observations from a re-analysis of the deposited data

How the results depend on the processing

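The number of genes called ranged from 6699 with only the 4 arrays of both groups to 10993 with the replicate block (main 9316), and leaving out 1 array gave 7009 to 7804. With the replicate block 9172 of the 9316 genes were called again, 144 were lost and 1821 gained, and among the 198 named genes it changed 1 call, that of Dnmt1. The slide as a block called 10562 genes. Each of these is within 1.5 times the main count, and no named gene turned from a call in one direction to a call in the other. The largest shift of the median of all genes under another scaling was 0.04.

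How the flags of repeated spots combine was varied after seeing the data. Under both looser rules 9318 of 23811 genes were called, and genes above background in PRDM14_DNMT3B and not in J1 numbered 515 and 513 in place of 518, and the reverse 527 and 526 in place of 530. Fold bounds rose by up to 1.66 times under the loosest rule, to at least 28.0-fold for Prdm14, 86.0-fold for Ddx3y and 203-fold for Mid1. With probes above background on all 10 arrays, other probes stood for Plagl1 (0.70) and Synm (0.38), and neither was called. With normexp background correction 6 of the 198 named genes lost their calls. They were Fabp7 (0.005), Gata4 (0.16), Klf5 (-0.40), Dkk1, Map2 and Tfrc. Igf2 (-0.27) was called lower under that correction. With 2 arrays per group an exact permutation test cannot go below p = 0.333, and the number of arrays limits the precision.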

Other observations

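Families picked by symbol after the values were seen are given as descriptions. Of 39 Hox genes on the array, homeobox genes of body patterning, 18 passed the filter, 11 of them called higher and 0 lower. Hoxa7 differed by 2.31 and Hoxd4 was at least 4.19-fold higher. A gene that passed the filter only in the group where it is high had to differ. Of 54 keratins 30 passed, 4 higher and 10 lower, with Krt71 at least 3.82-fold higher and Krt17 differing by -1.61. Of 43 collagens 29 passed, 3 higher (5 without PRDM14_DNMT3B replicate 2) and 8 lower, with Col22a1 at least 5.65-fold higher and Col4a2, on chromosome 8, differing by -1.10.

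Of 45 histone genes tested, core and H1 linker genes alike, 10 were higher and 4 lower. H3c15 was at least 17.9-fold higher, and near-identical copies share much of their sequence. On no J1 array and both PRDM14_DNMT3B arrays 518 genes were well above background, 463 of them called higher, and the reverse held for 530 genes, 427 of them called lower.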
